A study of Mus musculus with 4 samples.

Results

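Neurogliaform and ivy cells of the hippocampus were represented here by 141 Lamp5 nuclei, out of 55295 nuclei kept from 4 single-nucleus RNA libraries. They were chosen by measured values: at least 500 genes and under 5% mitochondrial UMIs (unique molecular identifiers, each standing for 1 captured RNA molecule), at least 3 UMIs of Gad1 plus Gad2, and at least 2 UMIs of Lamp5. Lamp5 also had to reach the UMIs of Sst and to exceed those of Pvalb and of Vip, and fewer than 2 of 6 glial genes (Mobp, Mog, Prr5l, Gja1, Fgfr3 and Inpp5d) could be detected. The levels of these genes therefore describe the choice and were not tested. The Gad and glial criteria without those on Lamp5 gave 3101 GABAergic nuclei, so 2960 other GABAergic nuclei remained for comparison.

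The hippocampus of both hemispheres was taken from 2 wild-type mice (WT) and 2 littermates heterozygous for an arginine-to-cysteine change in Cyfip2 (Cyfip2+/R87C, here KI), 1 mouse per library, at 28 weeks of age on the C57BL/6N background. The mutation was carried in the germ line, so every cell type held it. Cyfip2 encodes a subunit of the WAVE complex, which drives branching of actin filaments. The treatment label of KI replicate 2 reads R88C where its protocol reads R87C, and it was kept in the group that its title and genotype label give. All 4 libraries carried the same batch label. The 2 libraries of a genotype were 2 mice, so each p-value measures the spread between few animals.

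Lamp5 encodes a lysosome-associated membrane protein found in GABAergic neurons that release GABA diffusely, including neurogliaform and ivy cells. Neurogliaform cells fill their surroundings with a dense axon and inhibit dendrites slowly through GABA-A and GABA-B receptors, and many of them make the extracellular matrix protein reelin and Ndnf. Ivy cells make neuropeptide Y and neuronal nitric oxide synthase. In the mouse hippocampus, cells of this family come from the medial as well as the caudal ganglionic eminence, the embryonic sources marked by Lhx6 and by Adarb2 or Prox1.

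The libraries held 73009975 to 80913580 UMIs. WT replicates 1 and 2 gave 41 and 35 Lamp5 nuclei with 302617 and 263611 UMIs, and KI replicates 1 and 2 gave 27 and 38 nuclei with 271128 and 332957 UMIs. The median per Lamp5 nucleus was 6788 and 6575 UMIs in the WT libraries, against 10126 and 7487 in the KI libraries, so KI replicate 1 held the fewest and deepest nuclei. Of 315 barcodes shared between pairs of libraries, 0 belonged to a Lamp5 nucleus. A doublet score above 0.25 was found in 8 of the 141 nuclei.

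Most members sat at the edge of the Lamp5 criterion. Exactly 2 Lamp5 UMIs were found in 94 nuclei and 3 or more in 47, and 280 GABAergic nuclei with exactly 1 Lamp5 UMI met every other condition and stayed outside. Reln was at 661 CPM (counts per 1000000 UMIs) in the nuclei with exactly 2 Lamp5 UMIs, at 908 CPM in those with 3 or more, and at 483 CPM in those with 1. Ndnf stood at 112, 105 and 64.9 CPM in the same order. Among excitatory nuclei 5.90% held at least 1 Lamp5 UMI and 0.670% held at least 2, at a median of 6950 UMIs against 7521 in the Lamp5 nuclei. Among oligodendrocyte nuclei, which should lack the gene, 2.21% held at least 1 Lamp5 UMI at a median of 1732 UMIs. The Gad criterion was less tight, with 12 members at exactly 3 UMIs of Gad1 plus Gad2 and 11 nuclei just outside at 2.

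The name was checked against genes that the choice had not used. At least 1 UMI of Ndnf, Reln, Npy, Id2, Sv2c, Kit or Nos1 was found in 129 of 141 Lamp5 nuclei (91.5%), in 73.7% of the other GABAergic nuclei and in 58.9% of excitatory nuclei. Reln was detected in 56.7% of Lamp5 nuclei, and Ndnf, which encodes a secreted neurotrophic protein, in 30.5%. Ndnf and Reln were found together in 28.4% of Lamp5 nuclei, in 9.63% of the other GABAergic nuclei and in 0.488% of excitatory nuclei. Npy and Nos1, the ivy cell genes, were found together in 15 nuclei (10.6%), against 4.02% of the other GABAergic nuclei and 1.94% of excitatory nuclei. Of these 15 nuclei 8 came from KI replicate 2: the shares were 4.88% and 5.71% in the WT and 11.1% and 21.1% in the KI libraries, and 3.18% to 4.46% in the other GABAergic nuclei, so the WT libraries lay close to those. With each nucleus thinned to 3000 UMIs, which left out 3 Lamp5, 135 other GABAergic and 600 excitatory nuclei, Ndnf was found in 21.7%, 8.00% and 1.30% of the remaining nuclei in the same order. Reln and Npy did not set Lamp5 nuclei apart from Sst nuclei at this equal depth: Reln was found in 50.0% of Lamp5 and 49.4% of Sst nuclei, and Npy in 16.7% and 29.4%. Ndnf did, with 1.41% of Sst nuclei. Nos1 was found at that depth in 25.0%, 31.4%, 3.85% and 8.11% of the Lamp5 nuclei of WT replicates 1 and 2 and KI replicates 1 and 2, against 12.5% and 13.3% of Vip nuclei in KI, so its share was not above that of Vip nuclei in KI. The excitatory gene Slc17a7 was detected in 24.1% of Lamp5 nuclei, near the 27.1% of GABAergic nuclei without a class.

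**Figure D1:**
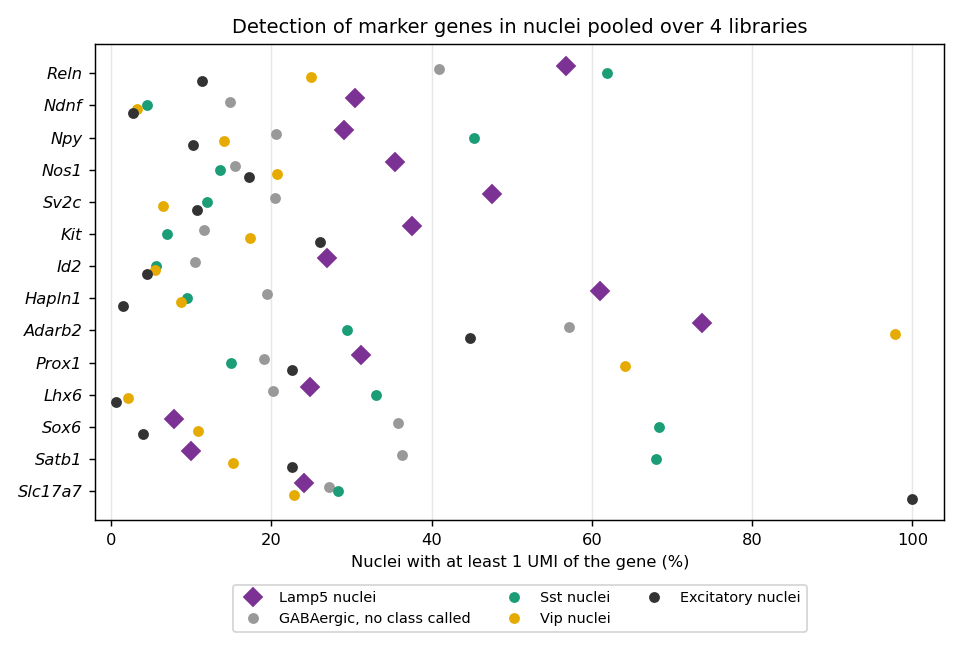
Share of nuclei with at least 1 UMI (x axis, %) for 14 marker genes (y axis) in Lamp5 nuclei (diamonds), GABAergic nuclei of no called class, Sst, Vip and excitatory nuclei (circles), pooled over the 4 libraries. Lamp5 nuclei stand to the right of the other classes for Ndnf, Sv2c, Kit, Id2 and Hapln1, and for Nos1 only as pooled, while Sox6 and Satb1 are detected in 7.80% and 9.93% of them against 68.3% and 68.1% of Sst nuclei.

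The genes that stood highest in Lamp5 nuclei against the other GABAergic nuclei were listed after the values had been seen, and are a description of the chosen nuclei. Of 1613 genes at 100 CPM or more, 19 outside the choice were more than 2 times as high in each of the 4 libraries. Hapln1, a link protein of the hyaluronan matrix, was at 197 CPM in Lamp5 nuclei and 43.4 CPM in the others, with ratios of 3.96 to 5.06 over the libraries. Cacna2d1, a calcium channel subunit, stood at 2046 against 530 CPM, and Fgf13, which binds sodium channels, at 2813 against 866 CPM. The receptor genes Kit, Egfr and Unc5c were also in this group, with Egfr at 345 against 65.7 CPM. At the low end, Satb1, a chromatin organizer of Sst and Pvalb cells, was at 12.0 CPM in Lamp5 nuclei and 126 CPM in the others. The calcium channel subunit genes thus differed in direction, since Cacna2d2 was at 16.2 against 102 CPM.

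Lhx6, a transcription factor kept by cells of the medial ganglionic eminence, was detected in 35 of the Lamp5 nuclei. They numbered 8 and 12 in the WT libraries, against 7 and 8 in the KI libraries, and 106 nuclei held no Lhx6 UMI, which can also be a failure to detect it. Kit, a receptor tyrosine kinase, was found in 8.57% of the Lhx6-detected nuclei and in 47.2% of the others. Ndnf followed the same order with 11.4% and 36.8%, as did Prox1 with 14.3% and 36.8% and Adarb2, which encodes an RNA-binding protein, with 51.4% and 81.1%. Neither is specific here: at 3000 UMIs per nucleus Adarb2 was found in 68.8% of Lamp5, 53.1% of oligodendrocyte and 31.96% of excitatory nuclei, and Prox1 in 15.9%, 31.4% and 14.0%, so no lineage was read from them. Only 1148 of 5016 oligodendrocyte nuclei reached 3000 UMIs, so their shares describe the deepest of that class. Nos1 was found in 51.4% and 30.2%, Sox6, which acts downstream of Lhx6, in 22.9% and 2.83%, and Hapln1 in 80.0% and 54.7%. Reln was close in both, at 51.4% and 58.5%. Of the other medial lineage genes, Satb1 was found in 11.4% and 9.43%, and Nkx2-1 in 2.86% and 4.72%, so they did not share the order of Sox6. The Lhx6-detected nuclei were deeper in each library, with medians of 8192.5, 7040.5, 10133 and 9391 UMIs in WT replicates 1 and 2 and KI replicates 1 and 2, against 6182, 6575, 9743.5 and 7098 in the others, and the part of depth in these shares was not tested. These are pooled shares of a few nuclei per library, given with no test.

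**Figure D2:**
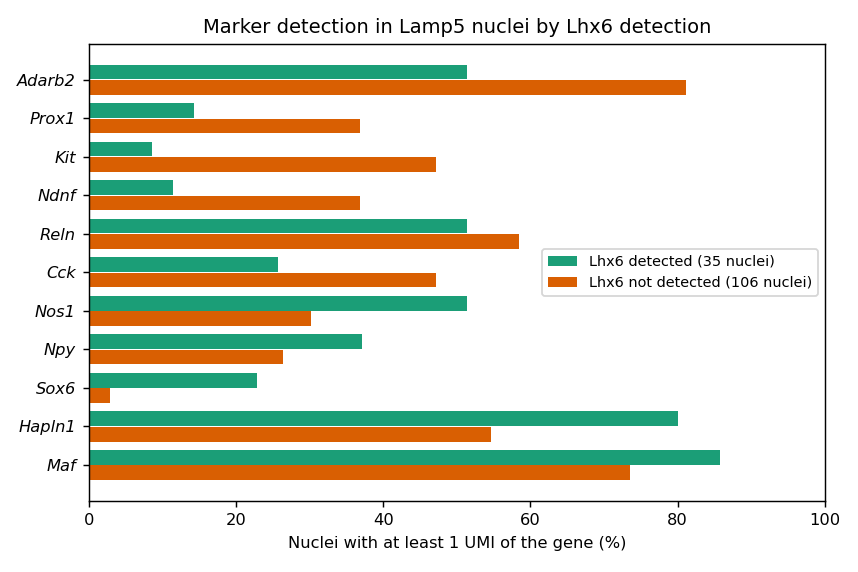
Share of Lamp5 nuclei with at least 1 UMI (x axis, %) of 11 genes (y axis), for the 35 nuclei in which Lhx6 was detected (green) and the 106 in which it was not (orange), pooled over 4 libraries. Kit, Ndnf, Prox1, Cck and Adarb2 have the longer bar without Lhx6, and Nos1, Npy, Sox6, Hapln1 and Maf with it.

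Lamp5 nuclei were 4.96% of the GABAergic nuclei in WT replicate 1 (exact 95% interval 3.59 to 6.67), 5.65% in WT replicate 2 (3.96 to 7.76), 3.64% in KI replicate 1 (2.41 to 5.25) and 4.16% in KI replicate 2 (2.96 to 5.67). Both KI libraries were below both WT libraries, while the counting intervals overlapped. The means were 5.30% ± 0.482 in WT and 3.90% ± 0.370 in KI (SD, n = 2), and the exact two-sided permutation test gave p = 0.333, the smallest that 2 against 2 libraries allow. The choice needed 2 Lamp5 UMIs, so the share was also taken at equal depth. With every nucleus thinned to 3000 UMIs it was 2.17% ± 0.424 in WT and 1.98% ± 0.290 in KI (exact permutation p = 0.667). The difference was then smaller than the spread between libraries of 1 genotype. These thinned shares rested on only 9 and 5 Lamp5 nuclei in WT and 7 and 6 in KI. Their counting intervals were wide, with an exact 95% interval of 0.611 to 4.32% in WT replicate 2.

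Among all nuclei, the share was 0.257% and 0.266% in the WT libraries, against 0.215% and 0.279% in the KI libraries. The groups overlapped, and the exact permutation test gave p = 1. Without KI replicate 1 the difference turned from -0.014 to 0.018 percentage points. Lhx6-detected nuclei were 19.5% and 34.3% of the Lamp5 nuclei in WT and 25.9% and 21.1% in KI, again overlapping (exact permutation p = 1). With at least 3 Lamp5 UMIs they were 53.8% and 35.7% in WT, against 33.3% and 9.09% in KI, without overlap and from 9 to 14 Lamp5 nuclei per library, a difference of -23.57 percentage points. In the main choice, with at least 2 Lamp5 UMIs, leaving out WT replicate 2 turned the difference in the Lhx6-detected share from -3.41 to 3.98 percentage points. With 2 against 2 libraries the permutation test could not have passed a threshold of 0.05 for any of these shares.

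The genotypes were compared on the UMIs summed over the Lamp5 nuclei of each library. The quasi-likelihood test of edgeR, adjusted over all genes by Benjamini-Hochberg, called 22 of 4858 genes at an adjusted p below 0.05, which is 0.453% of those tested. The neuregulin gene Nrg1 had the lowest p of the 14 genes that were higher in KI (0.288%), followed by Arhgap6 and Mgat4c. The 8 genes that were lower in KI (0.165%) held 2 antisense RNAs of the Dlx loci, the phosphodiesterase gene Pde10a, the chaperone gene Hspa8 and the neuroserpin gene Serpini1. For 6 of the 22 genes (A830036E02Rik, Lhfp, Zfp46, Vwc2l, Epm2a and Prr16) 1 genotype was too low to reach the level for a test, so they entered it only through the genotype in which they were high, and their calls are given as a description. An unadjusted p below 0.05 was reached by 514 genes (10.6%). DESeq2 called 6, all among the 22: Nrg1, Arhgap6, Mgat4c, Dgkb, Pde10a and Dlx6os1. The other called genes did not pass with DESeq2, also where no adjusted p from it is given below. With at least 3 Lamp5 UMIs, which left 47 nuclei, 1 of the 16 called genes that could still be tested passed (Nrg1), and without the top nucleus of each gene 10 of 20 did. With library totals in place of TMM scaling, 12 genes were higher and 17 lower in KI, and the median log2 change of all genes moved from 0.0029 to -0.090.

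**Figure D3:**
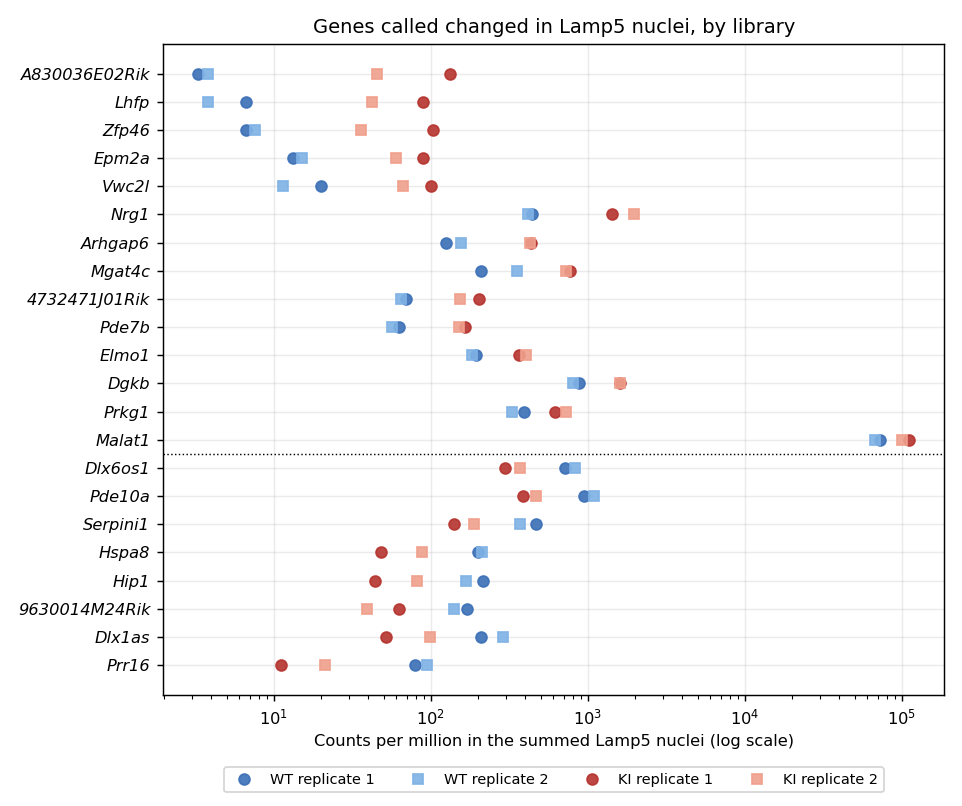
CPM in the summed Lamp5 nuclei (x axis, log scale) of the 22 genes that passed an adjusted p of 0.05 (y axis, ordered by fold change, with the dotted line between higher and lower in KI), 1 point per library. The 2 KI libraries lie on the same side of the 2 WT libraries for each of the 22 genes, a pattern the call itself favours.

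Nrg1, on chromosome 8 (31814551 to 32884029, minus strand, GRCm38), encodes neuregulin 1, a ligand of the ErbB4 receptor that many interneurons carry. It was at 443 and 413 CPM in the WT libraries, against 1431 and 1970 CPM in the KI libraries. Both KI libraries were more than 3 times as high as either WT library. The log2 fold change was 2.07 (SE 0.21, a 4.21-fold higher level), and the adjusted p was 4.29e-05 (edgeR). Nrg1 was found in 25 of 41 and 23 of 35 WT nuclei and in 21 of 27 and 32 of 38 KI nuclei. Its level varied widely between nuclei: the median was 1.29 and 2.44 UMIs per 10000 in the WT libraries, against 3.33 and 13.2 in the KI libraries, and the top nucleus held 12.8% to 28.6% of a library's Nrg1 UMIs. The call held in each of the 14 alternatives in which Nrg1 was tested, with a log2 fold change of 1.83 to 2.29 and an adjusted p of at most 0.015. Leaving out the top nucleus of each gene in each library was one of these, and it was chosen after seeing the data.

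**Figure D4:**
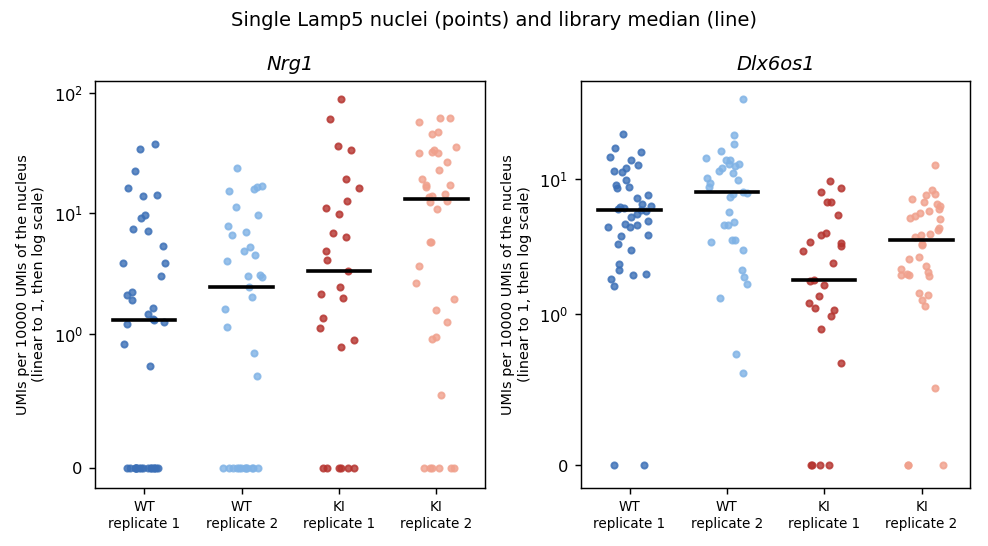
UMIs of Nrg1 (left) and Dlx6os1 (right) per 10000 UMIs of the nucleus (y axis, linear to 1 and logarithmic above) in each Lamp5 nucleus (points) by library (x axis), with the median of the library as a line. The KI medians of Nrg1, 3.33 and 13.2, lie above the WT medians of 1.29 and 2.44, with wide overlap of single nuclei, and the KI medians of Dlx6os1, 1.78 and 3.503, lie below the WT medians of 5.82 and 7.96.

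Other genes that rose were Dgkb, Arhgap6, Elmo1, Prkg1 and Pde7b. Dgkb, a diacylglycerol kinase, was at 882 and 808 CPM in WT, against 1608 and 1595 CPM in KI (log2 fold change 1.01, SE 0.18, adjusted p = 0.022 by edgeR's quasi-likelihood test). Arhgap6, which switches off small GTPases, was at 126 and 156 CPM in WT, against 432 and 429 CPM in KI (1.70, SE 0.25, adjusted p = 0.0048). Elmo1, which helps DOCK proteins to activate Rac, was at 195 and 182 CPM in WT, against 365 and 402 CPM in KI (1.11, SE 0.24, adjusted p = 0.048). For these 3 genes the WT libraries were close to each other, as were the KI libraries, and the groups did not overlap. Prkg1, the cGMP-dependent protein kinase that nitric oxide signalling engages, was at 390 and 326 CPM in WT, against 616 and 727 CPM in KI (0.99, SE 0.21, adjusted p = 0.049). Pde7b, a cAMP phosphodiesterase, was at 62.8 and 56.9 CPM in WT, against 166 and 150 CPM in KI (1.47, SE 0.30, adjusted p = 0.042). Of Prkg1 UMIs in KI replicate 2, 81 of 242 came from 1 nucleus. Without the top nucleus of each gene the adjusted p was 0.18 for Prkg1, 0.11 for Pde7b and 0.069 for Elmo1. Without WT replicate 2 it was 0.47, 0.185 and 0.35, and 0.135 for Dgkb. Without WT replicate 1 it was 0.14, 0.13, 0.23 and 0.062 in the same order. Prkg1 and Elmo1 also lost the call with DESeq2 (0.070 and 0.095) and with library totals (0.083 and 0.076). DESeq2 did not call Pde7b either.

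Mgat4c, a glycosyltransferase gene, was at 208 and 353 CPM in WT, against 767 and 724 CPM in KI (log2 fold change 1.51, SE 0.24, adjusted p = 0.012 by edgeR's quasi-likelihood test). Epm2a encodes laforin, a glycogen phosphatase whose loss causes Lafora progressive myoclonus epilepsy. It was at 13.2 and 15.2 CPM in WT, against 88.5 and 60.1 CPM in KI, from 4 UMIs in each WT library and 24 and 20 UMIs in the KI libraries. Epm2a too reached the level for a test only through the KI libraries, so these values are a description. The KI UMIs of Epm2a came from 15 and 13 nuclei, with at most 3 in any of them. Malat1, an abundant nuclear noncoding RNA, was at 72812 and 67463 CPM in WT, against 110955 and 99670 CPM in KI, an increase of 0.67 on the log2 scale (SE 0.14, adjusted p = 0.043). The antisense RNA 4732471J01Rik rose as well, from 69.4 and 64.5 to 203 and 153 CPM (1.48, SE 0.30, adjusted p = 0.042). DESeq2 did not call it. Malat1 lost the call with DESeq2 (adjusted p = 0.070), with doublet scores above 0.25 left out (0.052) and with at least 3 Lamp5 UMIs (0.39). It took 6.75% to 7.28% of the UMIs of WT and 9.97% to 11.1% of those of KI Lamp5 nuclei, so the CPM of other genes were set against a larger Malat1 share in KI, and its part in their values was not tested. Without WT replicate 1, the adjusted p was 0.10 for Mgat4c and 0.13 for 4732471J01Rik, and without WT replicate 2 it was 0.16 for 4732471J01Rik.

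The largest fitted changes rested on few WT counts. A830036E02Rik, an antisense RNA, had 1 UMI in each WT library and 36 and 15 UMIs in the KI libraries, a pooled ratio of 23.9 (exact 95% counting interval 6.29 to 203). Lhfp, a gene of the tetraspan membrane protein kind, had 2 and 1 UMIs in WT and 24 and 14 in KI (ratio 11.9, interval 3.77 to 60.1). The 24 Lhfp UMIs of KI replicate 1 included 16 from 1 nucleus. Zfp46, a zinc finger gene, had 2 UMIs in each WT library and 28 and 12 in KI (9.37, interval 3.39 to 36.1), spread over 17 and 10 nuclei. Vwc2l, a secreted protein of the chordin-like kind, had 6 and 3 UMIs in WT and 27 and 22 in KI (5.10, interval 2.48 to 11.8). In each of these 4 genes the KI libraries were above the WT libraries. They reached the level for a test only through the KI libraries, so the ratios describe these libraries and carry no test.

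Among the genes that fell, 2 were antisense RNAs of Dlx genes, which encode the homeodomain factors of forebrain GABAergic neurons. Dlx6os1, on chromosome 6 (6820189 to 6871592, minus strand, GRCm38), was at 710 and 827 CPM in WT, against 295 and 369 CPM in KI (log2 fold change -1.12, SE 0.21, adjusted p = 0.037 by edgeR's quasi-likelihood test). It was detected in 39 of 41 and 35 of 35 WT nuclei and in 23 of 27 and 35 of 38 KI nuclei, so a lower level rather than loss from many nuclei was measured. Dlx1as, on chromosome 2 (71516454 to 71537891, minus strand), was at 208 and 288 CPM in WT, against 51.6 and 99.1 CPM in KI (-1.59, SE 0.32, adjusted p = 0.042). It was found in 27 and 29 WT nuclei and in 11 and 15 KI nuclei. Whether strand was used in counting is not given in the sources used here, and reads of these RNAs and of Dlx1, Dlx5 or Dlx6 could then be mixed. Gad1, which was part of the choice and not tested, was at 608 and 520 CPM in WT, against 277 and 366 CPM in KI, and Gad2 at 704 and 683 against 612 and 727 CPM. Leaving out WT replicate 2 gave an adjusted p of 0.17 for Dlx6os1 and 0.0945 for Dlx1as, and without WT replicate 1 it was 0.053 for Dlx6os1. DESeq2 gave 0.065 for Dlx1as.

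Pde10a, which breaks down cAMP and cGMP, was at 938 and 1100 CPM in WT, against 384 and 469 CPM in KI, lower in both KI libraries by 1.17 on the log2 scale (-1.17, SE 0.20, adjusted p = 0.020 by edgeR's quasi-likelihood test). Serpini1, the gene of the secreted protease inhibitor neuroserpin, was at 469 and 368 CPM in WT, against 140 and 189 CPM in KI (-1.25, SE 0.25, adjusted p = 0.042). Hspa8, a constitutive heat shock chaperone that uncoats clathrin vesicles, was at 198 and 212 CPM in WT, against 47.9 and 87.1 CPM in KI (-1.48, SE 0.31, adjusted p = 0.043). Hip1, a clathrin and actin adaptor of endocytosis, was at 215 and 167 CPM in WT, against 44.3 and 81.1 CPM in KI (-1.49, SE 0.32, adjusted p = 0.048). For these 4 genes both KI libraries lay well below the lower WT library. Prr16, a gene tied to cell size, had 24 and 25 UMIs in WT and 3 and 7 in KI, with all 3 UMIs of KI replicate 1 in 1 nucleus. Its pooled ratio of WT over KI was 5.23 (exact 95% counting interval 2.62 to 11.6), a description with no test, since the gene reached the level for a test only through the WT libraries. The noncoding RNA 9630014M24Rik fell from 169 and 140 to 62.7 and 39.0 CPM (-1.54, SE 0.33, adjusted p = 0.048). DESeq2 gave 0.065 for Serpini1 and did not call Hspa8, Hip1 or 9630014M24Rik. Leaving out WT replicate 2 gave an adjusted p of 0.098 for Pde10a and 0.063 for Hspa8. Without WT replicate 1 it was 0.38 for Serpini1, 0.24 for Hip1 and 0.23 for 9630014M24Rik. Without KI replicate 1 it was 0.071 for Hspa8 and 0.074 for Hip1, and without KI replicate 2 it was 0.077 for 9630014M24Rik.

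Gene lists of this cell family were then read for counts in each direction, and their members below an unadjusted p of 0.05 were named after their values were seen. There were 3 backgrounds: of all 4858 tested genes, 10.6% were below an unadjusted p of 0.05, 15.7% had both KI libraries above both WT libraries in CPM and 25.4% had both below. Of 22 Lamp5 class markers, 13 were tested. None passed by edgeR's quasi-likelihood test or by DESeq2, 4 were below an unadjusted p of 0.05, 1 had both KI libraries above and 6 had both below, and the median log2 change was -0.30 against 0.0029 over all genes. A gene that did not pass was not shown to be at the same level in both genotypes. Reln, the matrix protein of neurogliaform cells, was at 820 and 1036 CPM in WT, against 446 and 721 CPM in KI (-0.57, SE 0.23, edgeR adjusted p = 0.36). Hapln1 was at 238 and 292 CPM in WT, against 95.9 and 168 CPM in KI (-0.90, SE 0.29, edgeR adjusted p = 0.23). Both genes stood lower in each KI library without passing the test. Without KI replicate 2 their log2 changes were -0.96 and -1.37, in a fit that leaves 1 KI library and takes its spread from the WT libraries alone. Eya4, a transcriptional coactivator and phosphatase, had 32 and 15 UMIs in WT and 1 and 7 in KI, a ratio of WT over KI of 6.27 (exact 95% counting interval 2.93 to 15.4), and it too was tested only through its WT level. Tox2 was at 159 and 129 against 51.6 and 96.1 CPM (edgeR adjusted p = 0.33). Ndnf, at 76.0 and 140 against 81.1 and 138 CPM, overlapped, as did Npy, at 99.1 and 26.6 against 36.9 and 60.1 CPM.

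The lineage lists showed the same lack of calls. Of 6 ivy and medial lineage markers, 3 were tested, 0 passed by either tool and 0 were below an unadjusted p of 0.05. All 3 (Lhx6, Maf and Nos1) had both KI libraries below both WT libraries, against 25.4% of all tested genes. Lhx6 and Nos1 reached the level for a test only through WT, so their values are a description. Nos1 was at 92.5 and 98.6 CPM in WT, against 22.1 and 84.1 CPM in KI (edgeR adjusted p = 0.61), so most of its difference came from KI replicate 1, and without KI replicate 2 the adjusted p was 0.013. Of 6 caudal lineage markers, Adarb2 and Prox1 were tested, with 0 calls by either tool, 0 below an unadjusted p of 0.05 and a median log2 change of -0.10. Of 11 markers of other interneuron classes only Cck and Cnr1 were tested outside the choice. Neither passed by either tool, and 1, Cck, the gene of the peptide cholecystokinin, was below an unadjusted p of 0.05. It stood at 85.9 and 87.2 CPM in WT, against 18.4 and 45.1 CPM in KI (-1.31, SE 0.43, edgeR adjusted p = 0.24). Cck reached the level for a test only through WT, so its values are a description. With 1 library left out its log2 change ranged from -2.11 to -0.85.

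The GABA genes described here gave no call. Abat, the transaminase that breaks down GABA, was at 126 and 118 CPM in WT, against 103.3 and 102.1 CPM in KI (-0.16, SE 0.29, edgeR adjusted p = 0.91), a small difference without overlap. Of 16 GABA receptor genes, 12 were tested, 0 passed by either tool, 3 were below an unadjusted p of 0.05 and the median log2 change was 0.0010. The 3 had negative values: Gabra5, Gabrg3 and the GABA-B receptor gene Gabbr2, the last at 585 and 630 CPM in WT, against 395 and 411 CPM in KI (-0.50, SE 0.21, edgeR adjusted p = 0.39). Gabra5, at 18.4 and 60.1 CPM in KI, reached the level for a test only through WT.

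Of 14 genes of neuropeptide Y and nitric oxide signalling, 9 were tested and 1 passed with edgeR, Prkg1, described above, while 0 passed with DESeq2 and 2 were below an unadjusted p of 0.05. The others had a low median, so that the list stood at -0.45 on the log2 scale, with 2 of 9 having both KI libraries above and 4 having both below. Nos1ap, the adaptor of neuronal nitric oxide synthase, was at 192 and 163 CPM in WT, against 317 and 336 CPM in KI (0.96, SE 0.25, edgeR adjusted p = 0.10), and without either KI library it passed (0.030 and 0.045). The kinase and the adaptor gene were thus high in both KI libraries while Nos1 itself was not. Of 8 reelin pathway genes, 7 were tested, 0 passed by either tool and 3 were below an unadjusted p of 0.05: Reln, its receptor gene Vldlr and its intracellular adaptor gene Dab1. Dab1 was at 2102 and 2390 CPM in WT, against 1402 and 1838 CPM in KI (-0.38, SE 0.18, edgeR adjusted p = 0.47), and Vldlr at 59.5 and 49.3 against 25.8 and 15.02 CPM, a description, since Vldlr reached the level for a test only through WT.

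Receptor, channel and release genes gave no call. Of 18 ionotropic glutamate receptor genes, 15 were tested, with 0 calls by either tool, 4 below an unadjusted p of 0.05 and a median log2 change of 0.13. Among them were Grik2 (0.50) and Grin1 (0.71), with positive values, and Grin2a (-0.40). Of 12 metabotropic glutamate and muscarinic receptor genes, 8 were tested, with 0 calls by either tool, 1 below an unadjusted p of 0.05 and a median of 0.23. Of 28 potassium and HCN channel genes, 24 were tested, with 0 calls, 2 below an unadjusted p of 0.05 and a median of -0.017. For the 16 of 21 sodium and calcium channel genes that were tested, the corresponding values were 0 calls, 1 gene and a median of 0.25. For the 16 of 22 vesicle release genes that were tested, they were 0 calls, 2 genes and a median of 0.071. The count of 0 also held for DESeq2 in these last 3 lists. Both KI libraries were above both WT libraries for 8 of the 16 sodium and calcium channel genes and below for 2. These counts were 2 and 6 of 24 for the potassium and HCN list and 3 and 7 of 16 for the vesicle release list. They were 3 and 4 of 15 for the ionotropic list and 1 and 0 of 8 for the metabotropic and muscarinic list. Over all tested genes the shares were 15.7% and 25.4%. Of 5 connexin and pannexin genes, Gja1 was part of the choice and the other 4 were too low to test, and together the 5 were at 18.4 to 37.9 CPM.

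Of 32 activity-induced genes only 5 reached the level for a test. None passed by either tool, and 1, the scaffold gene Homer1, was below an unadjusted p of 0.05, at 92.5 and 182 CPM in WT, against 44.3 and 90.1 CPM in KI (-0.89, SE 0.37, edgeR adjusted p = 0.39). With 1 library left out its log2 change ranged from -1.51 to -0.36. Summed over the list, the levels were 529 and 725 CPM in WT, against 472 and 454 CPM in KI. Fos and Arc had 2 UMIs each over the 4 libraries.

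Cyfip2 itself, on chromosome 11 (46193850 to 46312859, minus strand, GRCm38), was at 142 and 159 CPM in WT, against 144 and 126 CPM in KI Lamp5 nuclei (log2 fold change -0.074, SE 0.28, edgeR adjusted p = 0.95). The groups overlapped, and the value did not check the labels, because the mutation changes 1 amino acid and the counts do not tell the alleles apart. Of the 11 genes of the WAVE complex, 8 were tested, with 0 calls by either tool, 0 below an unadjusted p of 0.05 and a median of 0.0044. Of 17 genes discussed by the study, 12 were tested and 0 passed by either tool. That list was chosen by the study on these samples and is not independent evidence of direction. The 3 below an unadjusted p of 0.05 were Apod, Ptgds and Pcdh7. Pcdh7, a protocadherin, was at 284 and 216 CPM in WT, against 446 and 460 CPM in KI (0.94, SE 0.23, edgeR adjusted p = 0.092). The lipid carrier genes were at low levels here, Ptgds at 79.3 and 53.1 against 181 and 135 CPM (adjusted p = 0.087) and Apod at 33.0 and 19.0 against 210 and 36.0 CPM, where KI replicate 1 stood apart. Apod reached the level for a test only through KI, so its values are a description, and its log2 change of 2.24 was 0.53 without KI replicate 1. Without KI replicate 2 the log2 change was 1.52 for Ptgds and 0.92 for Pcdh7, and without KI replicate 1 it was 0.96 for Pcdh7.

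Markers of other cell types were also read in Lamp5 nuclei. The 9 excitatory markers summed to 829 and 675 CPM in WT, against 502 and 643 CPM in KI, with 4 tested, 0 called by either tool and 1 below an unadjusted p of 0.05 (Mpped1, lower in both KI libraries). The 7 oligodendrocyte markers summed to 268, 133, 103 and 240 CPM over WT replicates 1 and 2 and KI replicates 1 and 2, so that the groups overlapped. Astrocyte markers summed to 22.8 to 84.1 CPM with Aqp4 and Fgfr3 at 0, microglia markers to 62.8 to 110 CPM with Inpp5d and Tmem119 at 0, precursor markers to 3.69 to 36.0 CPM, and vascular and choroid markers to 26.6 to 66.1 CPM with Flt1 and Cldn5 at 0. Of these glial and vascular lists 4 genes were tested, and 0 were called by either tool or below an unadjusted p of 0.05. Their part in the results was not tested. Genes of the choice are among the glial markers, so low values of those follow from it.

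The comparison was repeated within the nuclei with and without detected Lhx6. In the 35 Lhx6-detected nuclei 1 of 1271 genes passed (0.0787%), Il1rapl2, a synapse-forming receptor of the interleukin-1 family, at 780 and 478 CPM in WT, against 43.9 and 31.9 CPM in KI. It had 50 and 42 UMIs in these WT nuclei and 3 UMIs in each KI library, so it reached the level for a test only through WT and its call is a description. Over all Lamp5 nuclei its UMIs came from 7 and 9 nuclei in WT and from 1 and 7 in KI. In the nuclei without Lhx6 it was at 20.96 and 171 CPM in WT, against 0 and 138 CPM in KI, which overlap. Reln was at 1264 and 728 CPM in the WT and 176 and 170 CPM in the KI Lhx6-detected nuclei. It was lower in both KI libraries but short of the threshold (-2.42, SE 0.39, edgeR adjusted p = 0.077), which it passed in 9 of 13 alternatives. Among these were the fits with 1 library left out. In the nuclei without Lhx6, Reln was at 700 and 1189 against 537 and 938 CPM, which overlap. Prkg1 was at 343 and 296 against 1054 and 1063 CPM in the Lhx6-detected nuclei (edgeR adjusted p = 0.077) and at 402 and 341 against 468 and 594 CPM in the others. Dgkg (2.03, edgeR adjusted p = 0.077) did not pass there either. Of 13 alternatives Prkg1 passed in 5 and Dgkg in 4, for each gene with the fits that leave 1 KI library among them. Hs3st5 had 39 and 31 UMIs in WT and 0 and 5 in KI there, and like Il1rapl2 reached the level for a test only through WT. Whether these effects differ between the Lhx6 groups was not tested, and each library gave only 7 to 12 Lhx6-detected nuclei.

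In the 106 nuclei without Lhx6, 3 of 4093 genes passed (0.0733%), each higher in KI and among the 22 of the whole class: Nrg1, Arhgap6 and Epm2a. Nrg1 was at 541 and 393 CPM in WT, against 1667 and 1775 CPM in KI (1.95, SE 0.24, edgeR adjusted p = 0.0045), a call lost with doublet scores above 0.25 left out (0.0562) and with at least 3 Lamp5 UMIs (0.404). In the Lhx6-detected nuclei it was at 78.0 and 455 against 732 and 2466 CPM (2.60, SE 0.71, edgeR adjusted p = 0.21), again with both KI libraries above both WT libraries. Arhgap6 was at 138 and 211 CPM in WT, against 518 and 553 CPM in KI in the nuclei without Lhx6 (1.72, SE 0.29, edgeR adjusted p = 0.046), and lost the call without WT replicate 1 (0.13), without KI replicate 2 (0.12), without doublets (0.171), with library totals (0.0655) and with at least 3 Lamp5 UMIs (0.246). Epm2a had 1 UMI in each WT library and 20 and 18 UMIs in the KI libraries here, so it reached the level for a test only through KI and its call is a description. That call was also lost with DESeq2 (0.401), library totals (0.0655), thinned sums (0.0713), doublets left out (0.171) and without WT replicate 1 (0.068), KI replicate 1 (0.20) or KI replicate 2 (0.27). Dlx1as was at 247 and 341 against 44.4 and 87.9 CPM without reaching the threshold (edgeR adjusted p = 0.060).

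Whether the KI effect in Lamp5 nuclei differed from that in the other GABAergic nuclei of the same libraries was tested as an interaction. It differed for 3 of 4858 genes (0.0618%), each with the more positive effect in Lamp5 nuclei: Nrg1, Pde7b and Chst9. Nrg1 was at 461 and 511 CPM in WT, against 713 and 938 CPM in KI in the other GABAergic nuclei, so that WT levels were alike and the rise was smaller there (log2 fold change 0.87, SE 0.13). The difference of the 2 effects was 1.21 (SE 0.19, edgeR adjusted p = 0.017). In excitatory nuclei Nrg1 was at 525 and 1081 CPM in WT, against 1200 and 1690 CPM in KI, a level that also varied between the WT mice. Pde7b, higher in KI in Lamp5 nuclei, was at 78.1 and 77.2 CPM in WT, against 53.5 and 60.0 CPM in KI in the other GABAergic nuclei, lower in both KI libraries, and the difference was 1.84 (SE 0.30, edgeR adjusted p = 0.017). Chst9, a sulfotransferase, was at 49.6 and 22.8 CPM in WT, against 81.1 and 114 CPM in KI in Lamp5 nuclei. It had a log2 fold change of -1.04 (SE 0.19) in the others, a difference of 2.53 (SE 0.41, edgeR adjusted p = 0.017). With 15 and 6 UMIs in the WT Lamp5 nuclei, Chst9 reached the level for a test there only through KI, so its interaction is a description. With WT replicate 2 left out the adjusted p was 0.25 for Nrg1 and 0.21 for Pde7b and Chst9. With doublet scores above 0.25 left out it was 0.097 for Pde7b and 0.066 for Chst9, while Nrg1 still passed. DESeq2 gave 0.294 for Pde7b and 0.0717 for Chst9, and sums thinned to equal depth gave 0.0643 and 0.0531. With at least 3 Lamp5 UMIs the adjusted p was 0.524 for Nrg1, 0.462 for Pde7b and 0.433 for Chst9, so no interaction passed there.

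**Figure D5:**
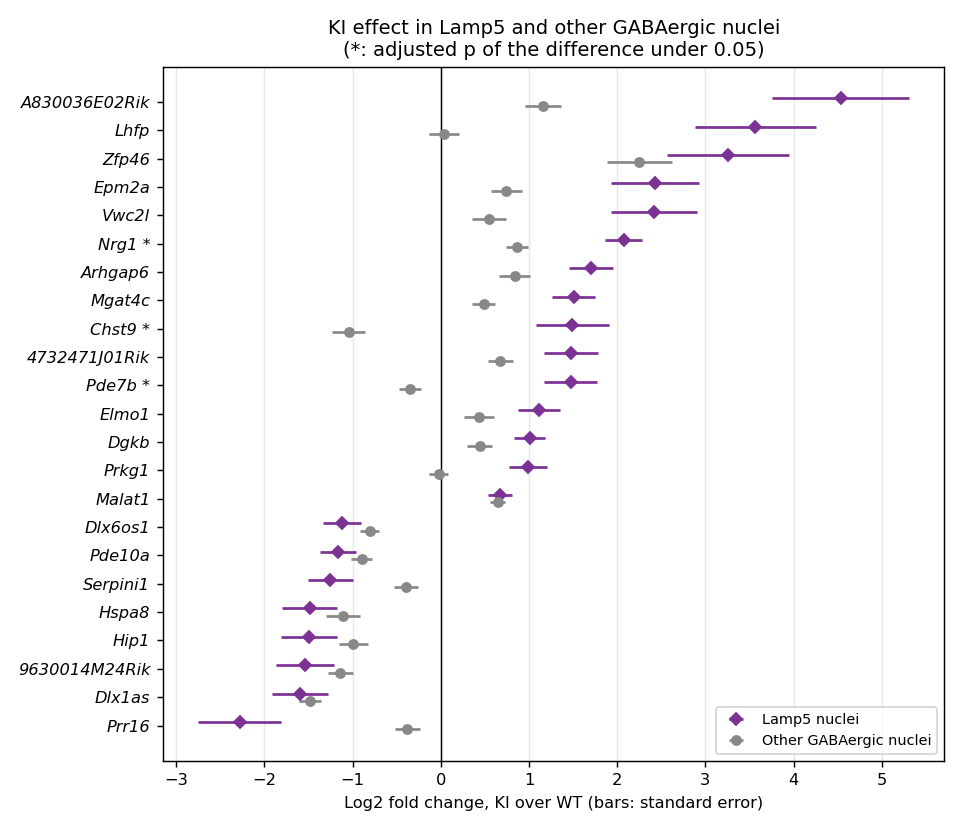
Log2 fold change of KI over WT with its standard error (x axis) in Lamp5 nuclei (diamonds) and in the other GABAergic nuclei (circles) for the 22 called genes and Chst9 (y axis), with an asterisk where the difference had an adjusted p below 0.05. Pde7b and Chst9 lie on opposite sides of 0 in the 2 groups, Nrg1 is at 2.07 against 0.87, and Malat1 and Dlx1as nearly coincide.

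Of the 22 called genes, Nrg1 and Pde7b passed this test of the difference. Dlx1as was at 167 and 160.5 CPM in WT, against 52.1 and 56.9 CPM in KI in those nuclei, and Pde10a at 838 and 827 against 453 and 378 CPM. Hspa8 was at 221 and 161 against 66.0 and 99.9 CPM. These 3 genes were thus lower in KI in the other GABAergic nuclei too, with interaction values of -0.10, -0.24 and -0.40 that did not pass (edgeR adjusted p = 0.98, 0.94 and 0.92). Prkg1 was at 718 and 629 CPM in WT, against 619 and 614 CPM in KI in the other GABAergic nuclei, with a difference of 1.03 (SE 0.20, edgeR adjusted p = 0.085). Prr16 was at 122 and 123 against 75.1 and 101 CPM there, with a difference of -1.93 (SE 0.43, edgeR adjusted p = 0.15). Lhfp (3.62), Eya4 (-2.48), Vwc2 (-1.39), Kcnmb2 (-0.83) and Nxph1 (-0.75) had differences that did not pass either, and Prr16, Lhfp and Eya4 reached the level for a test in Lamp5 nuclei only through 1 genotype. The plot of log2 fold changes in both groups of nuclei gives the values of all 22 genes. Both classes come from the same 4 mice, so they are not independent evidence for a gene.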

How the data were processed

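The authors deposited, per the file headers, raw UMI counts per gene and nucleus barcode made with Cell Ranger 7.0.1, not normalized; the build is mm10 per the submitters' processing notes. The use of intronic reads and of strand is not given in the sources used here. Barcodes under 500 genes or with 5% or more mitochondrial UMIs were removed (345 of 55640). Lamp5 nuclei were chosen as stated in the report. Members and gene lists were chosen with earlier results of these data known. Positions come from GENCODE M21, which held 32235 of 32285 gene IDs. Doublets were scored with Scrublet in scanpy 1.11.5 and kept in the main comparison.

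Counts were summed per library and compared with edgeR 4.0.16 (R 4.3.3; filterByExpr, TMM factors, quasi-likelihood test, Benjamini-Hochberg over all genes tested, threshold 0.05). The difference from the other GABAergic nuclei was fitted as an interaction with the library as a block. CPM are counts over the library's class sum. Shares were compared by exact permutation, with exact binomial intervals that cover counting error only. Named genes were, among those past the threshold with a mean of at least 20 CPM and no overlap between genotypes, up to 12 per direction by fold change in Lamp5 nuclei, 5 for the interaction and 3 for each Lhx6 group, filled with the smallest p where fewer than that passed, plus members of the gene lists. The leading genes were named after values were seen. Tests were checked on simulated data. Some list members are not reported here.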

Additional observations from a re-analysis of the deposited data

Results flagged for a closer look

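For 3 genes the effect of the genotype in Lamp5 nuclei differed from that in the other GABAergic nuclei by a test of the difference itself, edgeR's interaction term with Benjamini-Hochberg adjustment. Nrg1 rose by 1.213 more on the log2 scale in Lamp5 nuclei (adjusted p = 0.017), Pde7b had a difference of 1.838 (adjusted p = 0.017) and Chst9 one of 2.531 (adjusted p = 0.017). In Lamp5 nuclei themselves Chst9 did not pass (log2 fold change 1.49, SE 0.41, edgeR adjusted p = 0.15). Chst9 reached the level for a test there only through KI, so its difference is a description. With at least 3 Lamp5 UMIs no interaction passed (adjusted p = 0.524 for Nrg1, 0.462 for Pde7b and 0.433 for Chst9), and without WT replicate 2 it was 0.249, 0.209 and 0.209. Pde7b and Chst9 also failed with DESeq2 (0.294 and 0.0717), thinned sums (0.0643 and 0.0531) and doublets left out (0.0965 and 0.0655). Groups of 2 libraries are too small to search for a single outlying library.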

How the results depend on the processing

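The count of 22 genes changed in Lamp5 nuclei was 6 with DESeq2, 71 with no filter on low counts, 38 with doublet scores above 0.25 left out, 12 with sums thinned to equal depth, 1 with at least 3 Lamp5 UMIs (47 nuclei) and, chosen after seeing the data, 13 without the top nucleus of each gene. It was 20 to 179 when 1 library was left out, 69 without KI replicate 1 and 179 without KI replicate 2, with 15 and 21 of the 22 among them. DESeq2 kept 6 of the 22 and the thinned sums 11. In Lhx6-detected nuclei the count of 1 was 4 with DESeq2, 2 with library totals, 32 with no filter, 6 with 3 Lamp5 UMIs, 15 without doublets, 5 thinned and 14 to 77 with 1 library left out. In Lhx6-undetected nuclei the count of 3 was 1 with library totals, 26 with no filter, 0 with 3 Lamp5 UMIs (128 genes at an unadjusted p below 0.05), 0 without doublets (289 such genes) and 5 to 47 with 1 library left out. The 3 interactions were 1 with DESeq2, 23 with no filter, 0 with 3 Lamp5 UMIs (110 such genes), 1 thinned and 0 to 33 with 1 library left out, 0 without WT replicate 2 (272 such genes). A fit with 1 library left out leaves 1 library in a genotype, so its spread comes from the other genotype alone. The cause of these moves was not tested.

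The replicate block gave 94 called genes in Lamp5 nuclei, the 22 among them, 3 in Lhx6-detected nuclei, 15 in Lhx6-undetected nuclei and 23 interactions. The replicate numbers only name libraries: the deviations of the same-numbered libraries correlated at -0.026.

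The difference in the share of Lamp5 nuclei among GABAergic nuclei ranged from -1.745 to -1.063 percentage points with 1 library left out, and kept its direction in every alternative run. That among all nuclei ranged from -0.046 to 0.018 and was 8.275e-06 with nuclei thinned to 3000 UMIs. That of the Lhx6-detected share ranged from -10.80 to 3.977 with 1 library left out, and was -23.57 with at least 3 Lamp5 UMIs, -8.413 thinned and -6.913 without doublets. The log2 change of Cyfip2 turned to 0.068 without doublets and 0.03224 with thinned sums, and ranged from -0.1614 to 0.02759 with 1 library left out (above 0 without KI replicate 2). That of Ndnf ranged from -0.2998 (without KI replicate 2) and -0.2266 (without WT replicate 1) to 0.6154, and that of Npy from -0.9334 to 0.9906 (without WT replicate 1), with 0.01245 without the top nucleus. Of 891 values of single genes under alternatives, 675 kept direction and side of the threshold, 100 lost and 109 gained a call, and 7 turned.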
